A study of Homo sapiens with 24 samples.

Results

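The genes described here are the 7 protein-coding neighbours of MCM7 at 7q22, namely AP4M1, TAF6, COPS6, CNPY4, MBLAC1, LAMTOR4 and ZNF3, out of 21386 genes in the count tables. They were chosen by position alone, as genes around the target of an shRNA, and the question put to the data was whether the knock-down of MCM7 stayed with the MCM7 transcript. RNA was sequenced from the melanoma line A375 and from the lung adenocarcinoma line A549, in 4 groups per line with 3 biological replicates each, 24 libraries of total RNA in all. Cells carried a doxycycline (Dox)-inducible shRNA against MCM7 (shMCM7) or were the parental line, and both were left untreated (noDox) or given 1 μg/ml Dox over 72 hours, which gives shMCM7 Dox, shMCM7 noDox, parental Dox and parental noDox in each line. Every library, controls included, came from cells held at the G1/S boundary by a double thymidine block, and none of the cells analysed here carried a scrambled shRNA. The shMCM7 cells were transduced with the lentiviral vector pRSIT17 at a multiplicity of infection of 1.4 and are therefore a population with many integration sites, not a single clone. Levels are given in CPM, counts divided by library totals that were scaled with TMM factors over the 24 libraries, and as CPM per kb of exon wherever genes are compared with each other.

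MCM7 is a subunit of the MCM2-7 helicase, which is loaded onto replication origins in G1 as part of the pre-replication complex. Its neighbours have unrelated roles. AP4M1 is the medium subunit of the AP-4 adaptor complex, which sorts cargo at the trans-Golgi network, TAF6 is a subunit of the general transcription factor TFIID, and COPS6 belongs to the COP9 signalosome, which removes NEDD8 from cullins. CNPY4 is a Canopy family protein of the endoplasmic reticulum, LAMTOR4 is a subunit of the Ragulator complex on lysosomes, MBLAC1 is a metallo-beta-lactamase fold nuclease, and ZNF3 is a C2H2 zinc finger protein. A small interfering RNA cuts the mRNA it pairs with, while a shared promoter or an overlapping transcript can tie neighbouring genes together at the level of the locus.

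MCM7 (ENSG00000166508) occupies chromosome 7 of GRCh38 from 100092728 to 100101940 on the minus strand in GENCODE 29. AP4M1 (ENSG00000221838, plus strand, 100101549 to 100110345) starts inside the 5′ end of MCM7, and the 2 genes share 392 bases, all exonic. COPS6 (ENSG00000168090, plus strand, 100088954 to 100092200) ends 527 bases from the 3′ end of MCM7. ZNF3 (ENSG00000166526, minus strand, 100064033 to 100082548) lies on the same side, 10179 bases from MCM7. Beyond AP4M1 follow TAF6 (ENSG00000106290, minus strand, 100107070 to 100119841), CNPY4 (ENSG00000166997, plus strand, 100119613 to 100125511), MBLAC1 (ENSG00000214309, plus strand, 100126694 to 100128498) and LAMTOR4 (ENSG00000188186, plus strand, 100148907 to 100155944), the last of them 46966 bases from MCM7. TAF6 overlaps AP4M1 by 3276 bases, 1010 of them exonic in both. Exonic bases shared with another gene make up 29.7% of AP4M1, 28.3% of TAF6, 18.4% of LAMTOR4, 16.2% of ZNF3, 8.08% of MBLAC1, 5.94% of CNPY4 and 0% of COPS6. A strand setting for the counting is not given in the sources used here, so reads from the shared bases cannot be assigned with certainty and by this annotation only the counts of COPS6 are free of this limit.

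The target of the shRNA is shown first because it sets which transcripts can be hit. Capitals mark the 7 bases that pair with positions 2 to 8 of the guide, if the guide is the reverse complement of the target.
shRNA target in MCM7: cagaggaggatttCTACGAAa
This 21-base sequence had an exact match in the transcripts of 1 gene, MCM7. It is split over an exon junction of the coding sequence, at 100097834 to 100097836 and 100097728 to 100097745 on the minus strand of chromosome 7. In the neighbours, the best ungapped match in any transcript is given below for the 3 genes nearest to MCM7 and for ZNF3, with matching bases in capitals.
AP4M1: CgGAGGAGaATcgCTcttAAA
TAF6: tgGAGcAGcAgcTCTACtAcA
COPS6: gAagGGAGtAgTTaTtCtAAA
ZNF3: CgGgGGAGaAaccCTAtGAAt
The match covered 14 of 21 bases in AP4M1, 13 in TAF6, COPS6 and ZNF3, and 12 in CNPY4, MBLAC1 and LAMTOR4. The 7-base seed site was in the longest transcript of COPS6 and of ZNF3, once each, and in none of the other 5 neighbours. It was present in the longest transcript of 1067 of 21320 genes (5.005%).

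AP4M1 and MCM7 are transcribed away from each other. RefSeq gives 3 start sites for MCM7 and 2 for AP4M1, and the outermost MCM7 site (100101397) lies 246 bases from the AP4M1 site at 100101643. Another pair of sites, at 100100754 for MCM7 and 100100794 for AP4M1, is 40 bases apart and lies inside the GENCODE span of MCM7. The promoter window of AP4M1 (RefSeq, GRCh38.p14, chr7:100101393-100101692, plus strand, from 250 bases before the start site to 50 after it) shares 255 bases with that of MCM7. It is printed because it holds the 255 bases that both windows share. Which start sites these cells use was not tested.
AP4M1 promoter: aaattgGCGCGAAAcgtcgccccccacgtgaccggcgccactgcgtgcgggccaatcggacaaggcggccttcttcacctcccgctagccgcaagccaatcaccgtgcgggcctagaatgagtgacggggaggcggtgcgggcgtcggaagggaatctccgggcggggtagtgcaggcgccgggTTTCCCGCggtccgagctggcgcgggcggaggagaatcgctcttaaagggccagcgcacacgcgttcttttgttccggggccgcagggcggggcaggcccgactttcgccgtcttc
Capitals mark 2 motifs of the E2F family, the transcription factors that drive S phase genes, searched on both strands as TTTCGCGC and TTTCCCGC. The first stands on the opposite strand, from 244 bases before the AP4M1 start, and the second on the printed strand, from 66 bases before it. The letters TTTCGCGC occur in 0.515% and TTTCCCGC in 1.629% of 35116 RefSeq promoter windows of the same length. Among the windows of MCM7 and of 6 neighbours, only the overlapping ones of MCM7 and AP4M1 held either, and MBLAC1 was not searched. The NF-Y letters CCAAT, also in this window, occur in 34.614% of all windows.

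TAF6 and CNPY4 form another divergent pair, with start sites at 100119358 and 100119634, 276 bases apart. The CNPY4 window (chr7:100119384-100119683, plus strand), which shares 225 bases with that of TAF6, is shown for comparison and has no capitals since neither E2F form is in it.
CNPY4 promoter: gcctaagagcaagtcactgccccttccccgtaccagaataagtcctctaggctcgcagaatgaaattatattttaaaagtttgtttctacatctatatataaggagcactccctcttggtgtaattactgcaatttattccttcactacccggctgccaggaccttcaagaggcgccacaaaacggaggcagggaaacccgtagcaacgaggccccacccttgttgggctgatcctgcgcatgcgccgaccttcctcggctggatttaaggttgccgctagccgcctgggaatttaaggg
A match to these letters is a description of the sequence and no measure of binding. MCM7 also hosts the miRNA genes MIR25, MIR93 and MIR106B in its introns, and 0 of these 3 were listed in the count tables.

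The A375 libraries held 146656792 to 283721575 counts and the A549 libraries 17911338 to 23452823, so that 3 counts correspond to at most 0.0205 CPM in A375 and 0.167 CPM in A549. Of 6 melanocyte markers, 3 reached 1 CPM in A375, where SOX10 had a median of 603 CPM while MLANA and TYR were at or near 0, and all 6 epithelial markers reached it in A549. The lists did not separate the lines fully, since 2 melanocyte markers reached 1 CPM in A549 and 3 epithelial markers in A375, and MITF had a higher median in A549 (41.8 CPM) than in A375 (32.6 CPM). The replicates are separate samples by the labels and the methods, and no pair of them was identical. In A375, MCM7 was at 75.8, 74.6 and 76.2 CPM in shMCM7 Dox and between 336 and 363 CPM in the 6 parental libraries. In shMCM7 noDox it was at 347 and 354 CPM in replicates 2 and 3 but at 129.6 CPM in replicate 1, so 1 library of that group stood apart from the other 2. In A549, MCM7 was low in the libraries labelled shMCM7 Dox 3 (97.5 CPM), shMCM7 noDox 2 (101 CPM) and parental noDox 2 (90.7 CPM), and at 302 to 344 CPM in the other 9, which goes against the labels. A549 groups were therefore kept by label, and the A549 values are given library by library.

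In A375 shMCM7 cells, Dox lowered MCM7 and left none of its 7 neighbours past the test. MCM7 fell by 1.87 on the log2 scale (SE 0.30, 95% interval -2.55 to -1.19, FDR 0.00116), to 0.273-fold of the level without Dox, and by 2.21 when the noDox library at 129.6 CPM was left out. Of the neighbours, 0 of 7 had an FDR under 0.05, whereas 42.9% of the 16087 genes tested did, and 0 of 7 met the limits of the study (a 1.5-fold change, p under 0.01 and FDR under 0.05) in either direction, against 5.58% of all genes higher and 6.45% lower with Dox. FDR values are Benjamini-Hochberg adjusted p-values from edgeR's quasi-likelihood test over all genes tested. By an unadjusted p under 0.05, 0 of 7 neighbours passed in edgeR and 0 of 7 in DESeq2, against 8288 and 8081 of the 16087 genes tested. The median absolute log2 fold change was 0.095 over the neighbours and 0.21 over all genes tested.

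AP4M1, whose first bases and promoter window overlap those of MCM7, was at 25.8, 26.3 and 27.6 CPM in shMCM7 Dox. It was at 26.8, 27.0 and 25.3 CPM in shMCM7 noDox, and the groups overlapped. The 3 libraries with the lowest MCM7 levels in A375 thus held AP4M1 within the range of the other 9, which ran from 24.3 to 27.0 CPM, or just above it. The log2 fold change was 0.012 (SE 0.058, FDR 0.881), with a 95% interval of 0.921- to 1.10-fold.

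COPS6, tail to tail with MCM7, was the single neighbour whose shMCM7 groups did not overlap. It was at 151, 157 and 161 CPM in shMCM7 Dox. Without Dox the shMCM7 libraries had 167, 169.8 and 166 CPM, all above the Dox libraries, and 54.6% of all genes tested were separated in this way. The log2 fold change of COPS6 was -0.098 (SE 0.049, 95% interval 0.866- to 1.01-fold, FDR 0.133), which did not pass. The parental libraries, at 164, 164 and 160.2 CPM with Dox and 165, 158 and 152 CPM without, all lay below the 3 shMCM7 noDox libraries and overlapped the shMCM7 Dox libraries. The gap was narrow, with parental noDox 1 at 165.2 CPM and shMCM7 noDox 3 at 166.0 CPM. How many of all genes lay in this order was not counted.

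TAF6, at the far end of AP4M1, had 97.8, 90.2 and 100.3 CPM in shMCM7 Dox and 99.2, 89.8 and 90.7 CPM in shMCM7 noDox. Its groups overlapped, with a log2 fold change of 0.045 (SE 0.059, FDR 0.567, 95% interval 0.941- to 1.13-fold). CNPY4 had 29.1 to 31.7 CPM with Dox and 30.7 to 31.1 CPM without, a log2 fold change of -0.016 (FDR 0.836). LAMTOR4 had 54.6, 59.8 and 63.0 CPM with Dox and 64.9, 63.2 and 61.4 CPM without, and its log2 fold change was -0.095 (SE 0.063, FDR 0.248). ZNF3, the neighbour with a seed site besides COPS6, had 37.8, 41.7 and 42.5 CPM with Dox and 42.4, 44.1 and 44.5 CPM without. The lowest noDox library of ZNF3 lay just below the highest Dox library, and the log2 fold change was -0.10 (SE 0.061, FDR 0.203, 95% interval 0.847- to 1.02-fold). MBLAC1 was the least abundant, between 1.71 and 2.49 CPM over both groups, and its interval was the widest, from 0.870- to 1.42-fold. For the other 6 neighbours the intervals lay between 0.847- and 1.13-fold, so changes beyond that span were outside the 95% intervals while smaller ones were not resolved.

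**Figure D1:**
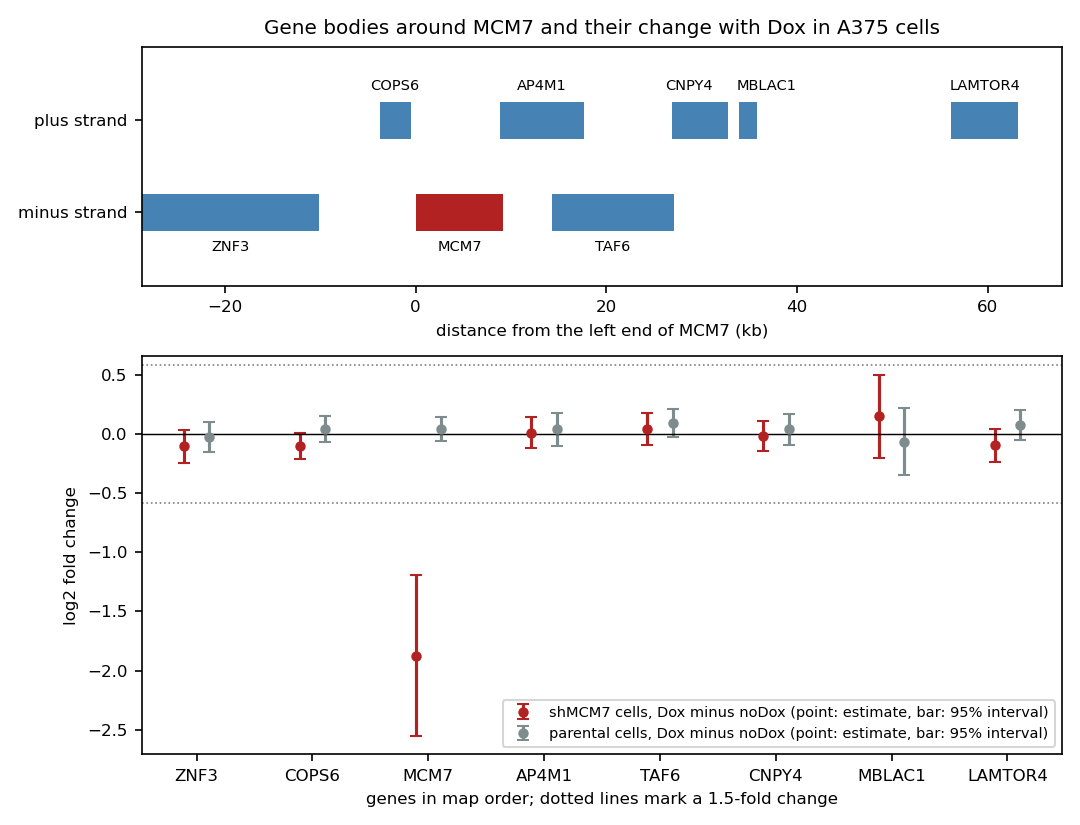
Upper panel, gene bodies of MCM7 (red) and its 7 neighbours (blue) by strand, in kb from the left end of MCM7. Lower panel, log2 fold change of Dox against noDox in A375 shMCM7 cells (red) and parental cells (grey) with 95% intervals; only MCM7 in shMCM7 cells, at -1.87, lies below the dotted line of a 1.5-fold change.

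**Figure D2:**
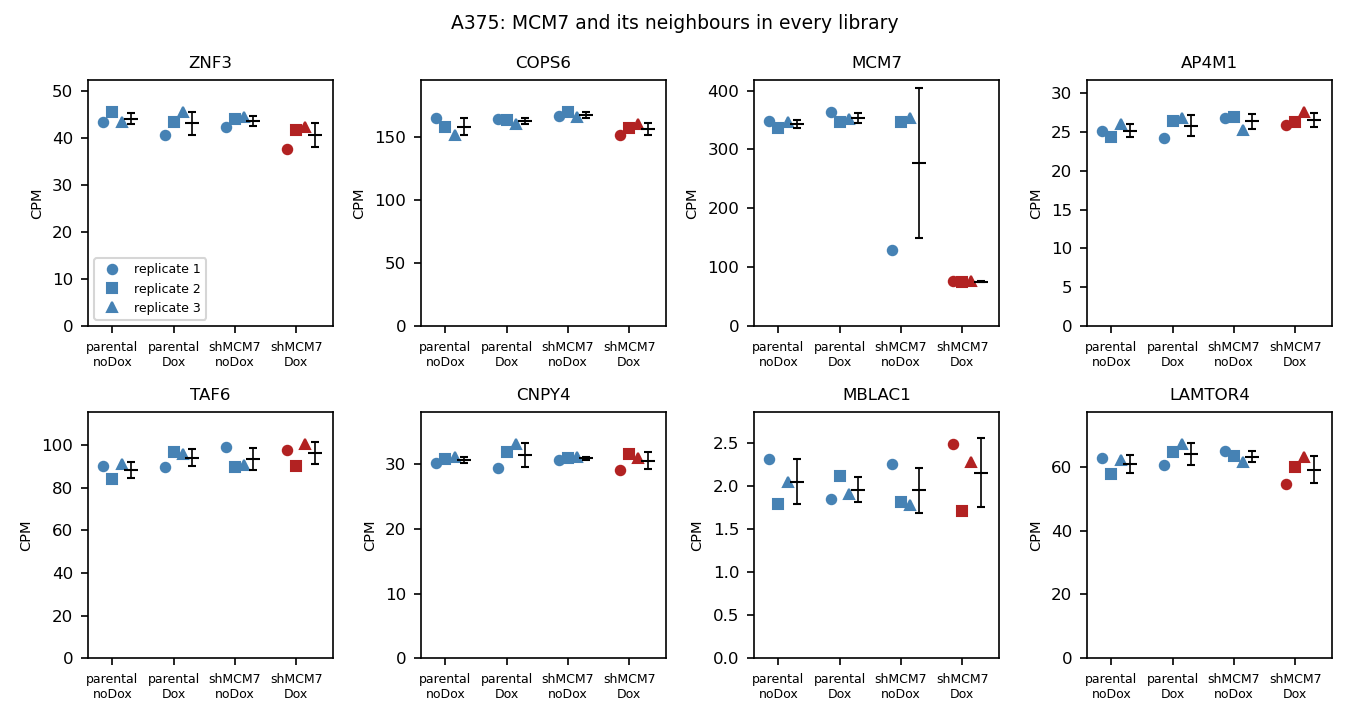
CPM of MCM7 and its 7 neighbours in each of the 12 A375 libraries (symbols, replicates 1 to 3; red, shMCM7 Dox), with group mean and SD (n = 3) in black. MCM7 is at 74.6 to 76.2 CPM in shMCM7 Dox and at 129.6 CPM in 1 shMCM7 noDox library, while AP4M1 stays between 24.3 and 27.6 CPM in all 12 libraries.

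In parental A375 cells, Dox was given without the shRNA. The log2 fold change of MCM7 there was 0.045 (SE 0.046, FDR 0.876), and 0 of 7 neighbours passed an FDR of 0.05, as did 0.0% of the 15993 genes tested by edgeR. At an unadjusted p under 0.05 the test counted 0 of 7 neighbours and 1121 of all genes, and 42 genes passed an FDR of 0.05 in DESeq2, none of them a neighbour. The neighbours' log2 fold changes ran from -0.064 for MBLAC1 to 0.093 for TAF6.

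Whether Dox acted otherwise in shMCM7 than in parental cells was tested as an interaction over all 12 A375 libraries. MCM7 gave -1.92 on the log2 scale (SE 0.35, FDR 0.00111). Of the neighbours 0 of 7 passed an FDR of 0.05, against 30.0% of 16334 genes. At an unadjusted p under 0.05, 1 of 7 passed in edgeR and in DESeq2, against 6783 and 6794 of all genes. The 1 neighbour was COPS6, with a log2 difference of -0.14 (SE 0.064, 95% interval -0.28 to -0.0071, FDR 0.103). LAMTOR4 followed with -0.18 (SE 0.085, FDR 0.134), and AP4M1 was at -0.029 (SE 0.079, FDR 0.812).

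The remaining A375 comparisons share libraries with those above, so their values are given side by side and not as further evidence. Between shMCM7 Dox and parental Dox, MCM7 fell by 2.23 on the log2 scale (SE 0.048, FDR 5.28e-08). In that comparison 48.0% of 16086 genes passed an FDR of 0.05 but 0 of 7 neighbours did, with AP4M1 at 0.038 (FDR 0.646), COPS6 at -0.061 (FDR 0.320) and LAMTOR4 at -0.12 (FDR 0.176). Between shMCM7 noDox and parental noDox, MCM7 was at -0.31 (SE 0.29, FDR 0.643), and at 0.031 when shMCM7 noDox replicate 1 was left out. There 2.97% of 16093 genes and 0 of 7 neighbours passed, and the neighbours ran from -0.077 for MBLAC1 to 0.081 for COPS6. In this comparison same-numbered libraries deviated together, and a fit that took the replicate number as a block gave 1352 up-regulated and 1226 down-regulated genes at an FDR of 0.05 in place of 306 and 172. The neighbours stayed at 0 of 7 with the block, the lowest FDR among them being 0.157.

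The other subunits of the complexes that the neighbours belong to were read in the same fit, in which 42.9% of all genes passed an FDR of 0.05. In these bulk samples, fewer cells of a type and less RNA per cell cannot be told apart. In A375 shMCM7 Dox against noDox, the 4 AP-4 subunits had 1 gene up-regulated at an FDR of 0.05, AP4S1, the small subunit, with a log2 fold change of 0.33 (FDR 0.0180). Of 16 TFIID subunits, 4 rose (TAF12 by 0.29, TAF10 by 0.22, TAF9 by 0.18 and TAF1 by 0.15) and 1 fell, TAF5, at -0.36 (FDR 0.00324). Of 10 COP9 signalosome genes, 3 fell, namely GPS1 at -0.42 (FDR 0.000479), COPS8 at -0.34 (FDR 0.00155) and COPS3 at -0.19 (FDR 0.0178). COPS6 itself, at -0.098, was not among them. Of the 5 Ragulator subunits, LAMTOR1, which anchors the complex to the lysosomal membrane, rose by 0.17 (FDR 0.0417) and LAMTOR2 fell by 0.22 on the log2 scale (FDR 0.0114). Of 3 Canopy genes tested, CNPY2 rose by 0.17 (FDR 0.0298). None of these genes reached a 1.5-fold change. They are named because their number was small, after their values were seen. Within the MCM2-7 helicase, 3 of 6 subunits fell, MCM4 by 0.32 (FDR 0.000933) and MCM3 by 0.19 on the log2 scale (FDR 0.00823) besides MCM7, which alone was called. The median log2 fold change was 0.037 for AP-4, 0.11 for TFIID, -0.062 for the COP9 signalosome, 0.046 for Ragulator, 0.014 for the Canopy genes and -0.13 for the helicase, beside 0.0045 over all genes tested.

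Within 500 kb of MCM7 on either side, 41 of 72 annotated genes were in the count tables. Leaving out MCM7 and its 7 neighbours, 28 were tested in A375 shMCM7 Dox against noDox, of which 7 rose and 4 fell at an FDR of 0.05, against 42.9% of all genes in either direction. At the limits of the study 4 were called, all of them lower with Dox, against 6.45% of all genes called lower and 5.58% called higher. Their median absolute log2 fold change was 0.21, as over all genes tested. The run of 7 genes from ZNF3 to LAMTOR4, interrupted by MCM7, held no gene past the test. The first gene past it on the LAMTOR4 side was C7orf43, up-regulated by 0.19 (FDR 0.0464), which overlaps LAMTOR4 by 1525 bases on the opposite strand. On the ZNF3 side the run went on beyond the neighbours. There ZSCAN21 (FDR 0.0597), ZKSCAN1 (FDR 0.956) and AZGP1 (FDR 0.0757) did not pass either. The first gene past the test on that side was GJC3, up-regulated by 0.76 (FDR 0.0361) at a mean of 0.177 CPM. These genes are named for their position.

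The largest changes past the test in this window, MCM7 aside, were in GAL3ST4, STAG3 and CYP3A5. GAL3ST4, a sulfotransferase that acts on galactose residues of glycans, was at 6.49, 6.95 and 7.17 CPM in shMCM7 Dox and at 12.7, 15.2 and 14.5 CPM in shMCM7 noDox. The parental libraries had 13.4 to 15.7 CPM, so all 3 shMCM7 Dox libraries lay below all other A375 libraries. Between shMCM7 Dox and shMCM7 noDox alone, 54.6% of all genes tested did not overlap. The share of all genes set apart from the parental libraries as well was not counted. GAL3ST4 fell by 1.04 on the log2 scale (SE 0.088, FDR 6.38e-05), and the difference from the Dox effect in parental cells was -1.14 (SE 0.11, FDR 1.60e-05). Its midpoint is 66.7 kb from that of MCM7, past LAMTOR4. STAG3, a meiotic cohesin subunit, fell by 0.91 on the log2 scale (SE 0.17, FDR 0.00257), from 0.463 to 0.556 CPM without Dox to 0.244 to 0.293 CPM with it. The difference of STAG3 from parental cells was -1.004 (SE 0.21, FDR 0.00339). CYP3A5, a drug-metabolizing cytochrome P450, fell by 0.80 on the log2 scale at under 0.4 CPM (FDR 0.0156), and its difference from parental cells did not pass (FDR 0.119). GPC2, a cell surface glypican between GAL3ST4 and STAG3, was singled out after its value was seen. It fell by 0.65 on the log2 scale (FDR 0.0116), and its difference from parental cells, -0.42, did not pass (FDR 0.254). GJC3, which rose by 0.76 (FDR 0.0361), changed by more than GPC2. In this window 7 genes rose past the test and 4 fell, MCM7 and its neighbours left out.

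Over the 12 A375 libraries, each neighbour was compared with all 16334 genes by the Pearson correlation of log2 CPM, as a description over points that share library depth and treatment. AP4M1 was most like RALGDS (r = 0.893) and DTX3 (r = 0.884), TAF6 like PTPN23 and SHARPIN (r = 0.946 for both), and COPS6 like ABCF1 (r = 0.921) and SRP68 (r = 0.909). MBLAC1 was most like GALK1 (r = 0.957) and NSMF (r = 0.951), LAMTOR4 like WDR6 (r = 0.919) and AP002748.4 (r = 0.904), CNPY4 like IFT122 (r = 0.823) and ZNF3 like ZNF32 (r = 0.930). For CNPY4 and ZNF3 a gene with a mean under 0.2 CPM ranked still higher and is not named. None of the genes ranked first or second was another neighbour. The neighbours that ranked highest were ZNF3 (rank 32) and LAMTOR4 (rank 44) for CNPY4 and TAF6 (rank 151) for AP4M1. At the other end, ZNF3 had rank 15388 for MBLAC1, and MBLAC1 had rank 14947 for CNPY4. Among the neighbours, AP4M1 and TAF6, which share 1010 exonic bases, had r = 0.714, CNPY4 and ZNF3 had r = 0.711 and CNPY4 and LAMTOR4 had r = 0.695, while AP4M1 and ZNF3 had r = 0.038. Other pairs ran against each other, with r = -0.498 for MBLAC1 and ZNF3, -0.412 for CNPY4 and MBLAC1 and -0.376 for TAF6 and ZNF3.

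In A549 by label, 0 of 7 neighbours passed an FDR of 0.05 in shMCM7 Dox against noDox, in parental Dox against noDox or in the difference between them, and neither did MCM7. The background was 0.0% of genes in all 3 comparisons by edgeR. At an unadjusted p under 0.05 edgeR counted 61 genes of 13550, 1137 of 13494 and 853 of 13785, with 0, 1 and 0 neighbours among them. In DESeq2, 0, 14 and 3 genes passed an FDR of 0.05, with no neighbour among them. Each of these groups but parental Dox mixes libraries of low and high MCM7, with the SD of MCM7 in shMCM7 Dox at 129.99 CPM (n = 3), so these counts say little about the neighbours and each library is given on its own.

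In A549, CNPY4 was at 13.7, 12.3 and 18.2 CPM in the libraries labelled shMCM7 Dox 1 to 3. In the libraries labelled shMCM7 noDox it was at 13.3, 18.4 and 13.3 CPM. The libraries labelled parental had 12.9, 13.6 and 13.4 CPM with Dox and 12.4, 19.8 and 12.2 CPM without. The highest 3 values belonged to shMCM7 Dox 3, shMCM7 noDox 2 and parental noDox 2, the libraries in which MCM7 was low, and the other 9 did not exceed 13.7 CPM. The share of all genes that set these libraries apart was not counted.

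COPS6 was at 161, 173 and 126 CPM in the libraries labelled shMCM7 Dox and at 158, 127 and 166 CPM in those labelled shMCM7 noDox. It was at 163, 165 and 163 CPM in parental Dox and at 177, 127 and 163 CPM in parental noDox. The lowest 3 values were again those of shMCM7 Dox 3, shMCM7 noDox 2 and parental noDox 2. ZNF3 followed the same order with 23.1, 22.8 and 22.1 CPM in these libraries, while the other 9 had 23.8 to 29.6 CPM. AP4M1 did not, since its values there, 14.0, 14.9 and 13.5 CPM, lay inside the range of the other 9 A549 libraries, 13.5 to 17.2 CPM. LAMTOR4 was at 48.2, 48.8 and 40.0 CPM in them, the last just below the range of the other 9, 40.3 to 52.8 CPM. TAF6 was at 97.7, 93.3 and 76.0 CPM in them and at 67.1 to 90.9 CPM in the others. MBLAC1 was at 1.31, 1.35 and 0.924 CPM in them, the last below the 1.03 to 1.69 CPM of the others. Libraries were set apart by MCM7 level only to describe these orders. No test was made of them, because a condition cannot be read from the gene it is meant to lower. The share of all genes with such an order was not counted either, so the orders cannot be called particular to the neighbours. In A375 shMCM7 Dox, where labels and MCM7 go together, CNPY4 was at 29.1, 31.7 and 31.0 CPM among A375 values of 29.1 to 33.1 CPM. The log2 fold changes of COPS6 and ZNF3 with Dox in A375 shMCM7 cells were -0.098 (FDR 0.133) and -0.10 (FDR 0.203). Both were thus lower by estimate, and neither passed the test.

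**Figure D3:**
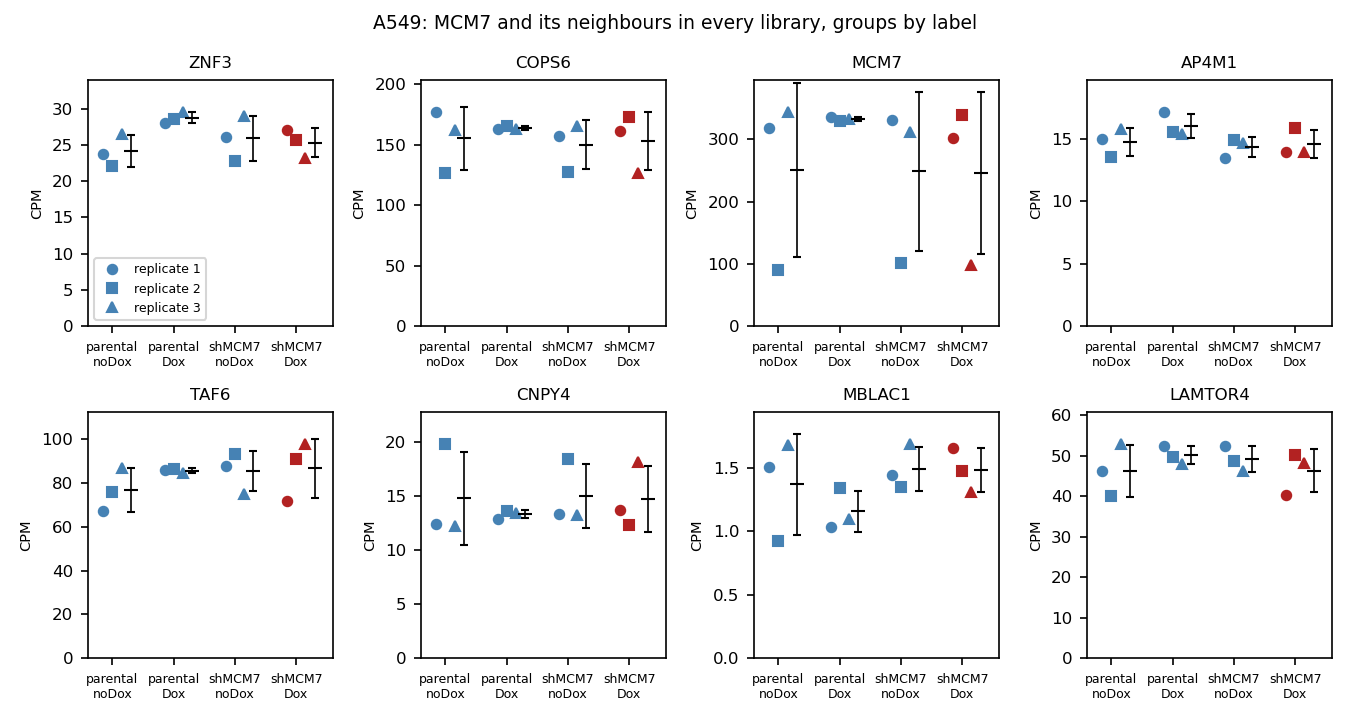
CPM of MCM7 and its 7 neighbours in the 12 A549 libraries by label (symbols, replicates 1 to 3; red, shMCM7 Dox), with group mean and SD (n = 3) in black. The libraries labelled parental noDox 2, shMCM7 noDox 2 and shMCM7 Dox 3 have the 3 lowest values of MCM7 and of COPS6 and the 3 highest of CNPY4. The share of all genes with such an order was not counted.

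Per kb of exon, the order of the neighbours was the same in both lines. In A375 COPS6 was highest at a median of 57.8 CPM per kb, followed by LAMTOR4 (32.2), TAF6 (22.2), CNPY4 (12.5), ZNF3 (8.001), AP4M1 (5.54) and MBLAC1 (1.26). No neighbours in that order overlapped over the 12 A375 libraries. In A549 the medians were 58.0 for COPS6, 25.05 for LAMTOR4, 21.1 for TAF6, 5.40 for CNPY4, 4.84 for ZNF3, 3.17 for AP4M1 and 0.889 CPM per kb for MBLAC1, and LAMTOR4 overlapped TAF6 and CNPY4 overlapped ZNF3. AP4M1 was thus far below MCM7, the gene with which its promoter window overlaps. In parental A375 cells without Dox the means were 5.33 ± 0.18 CPM per kb for AP4M1 and 78.3 ± 1.54 for MCM7 (SD, n = 3 each). With the shRNA induced, MCM7 was at 17.2 ± 0.19 CPM per kb (SD, n = 3), below COPS6, LAMTOR4 and TAF6 in the same cells.

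Between the lines, 6 of 7 neighbours were higher in A375 than in A549 at an FDR of 0.05, and 3 were called at 1.5-fold, where 47.5% and 33.0% of 16305 genes were higher by these thresholds. CNPY4 was higher by 1.07 on the log2 scale (SE 0.078, FDR 2.68e-11), AP4M1 by 0.77 (SE 0.038, FDR 3.83e-14) and ZNF3 by 0.70 (SE 0.042, FDR 1.07e-12). MBLAC1 was higher by 0.54, LAMTOR4 by 0.34 and TAF6 by 0.13 (FDR 0.0236), the last of which was lost when any 1 of 9 A375 libraries was left out (FDR 0.0501 to 0.0866). COPS6, at 0.025 (SE 0.055, FDR 0.672, 95% interval 0.940- to 1.10-fold), did not pass, and neither did MCM7 at -0.28 (FDR 0.258). The median over all genes was 0.091. The lines also differ in depth, which cannot be told apart from the line, and MBLAC1 rested on 18 to 36 counts per A549 library.

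**Figure D4:**
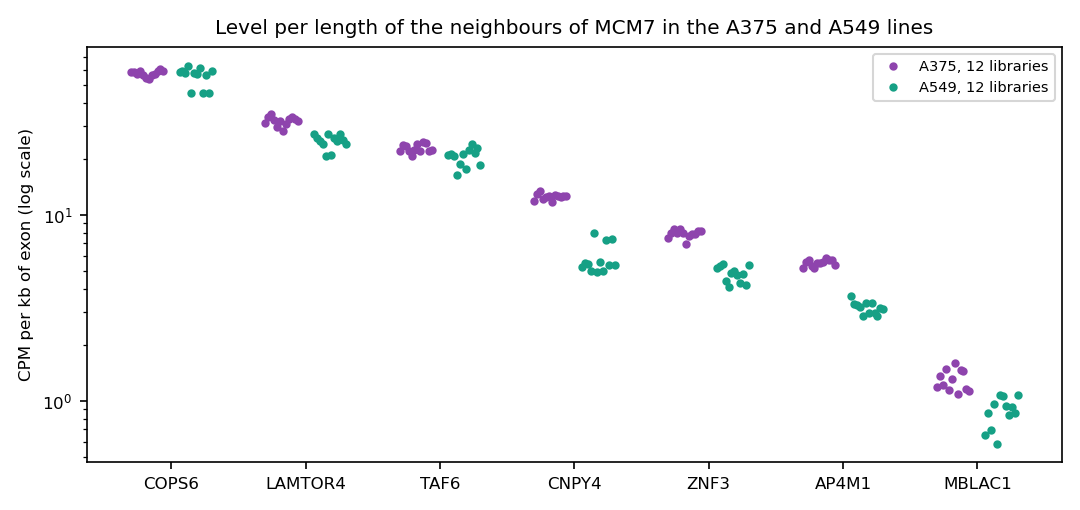
CPM per kb of exon (log axis) of the 7 neighbours in 12 A375 (purple) and 12 A549 (green) libraries, 1 point per library. LAMTOR4, CNPY4, ZNF3, AP4M1 and MBLAC1 separate between the lines, and TAF6 and COPS6, the latter with medians of 57.8 and 58.0, do not. MBLAC1 separates narrowly, with 1.09 CPM per kb as the lowest A375 value and 1.07 as the highest A549 value. The share of all genes that separate was not counted, and 14500 of 16305 passed an FDR of 0.05 between the lines.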

How the data were processed

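Total RNA of 24 libraries (3 biological replicates in each of 8 groups) was sequenced. Per the labels, the authors used bcl2fastq 2.19, Trimmomatic, STAR 2.7.1 and featureCounts with GRCh38.p10, and deposited raw read counts per Ensembl gene for each library. The strand setting is not given in the sources used here. The median depth was 227000374 counts in A375 and 20281925 in A549. Intervals and the limit of 3 counts cover counting error only where stated for counts. Of 21386 identifiers, 21349 were found in GENCODE 29, which gave names, positions and union exon lengths.

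Counts were tested with edgeR 4.0.16 in R 4.3.3 (filterByExpr, TMM, glmQLFit, glmQLFTest, prior count 0.125) on all genes, for the groups compared, with Benjamini-Hochberg adjustment. Calls required a 1.5-fold change, p under 0.01 and FDR under 0.05. All 7 neighbours passed the filter in every comparison. The neighbours, the gene lists and the tests were chosen with earlier results of these data known. Genes named are the neighbours and MCM7, the 3 largest changes past FDR 0.05 within 500 kb, called partners of each complex, and the 2 genes most correlated with each neighbour (prior count 2); exceptions are stated. Replicate chi-square per degree of freedom over 24 pairs lay between 1.98 and 112. The replicate numbers come from the labels. Deviations of same-numbered libraries correlated above 0.1 in every pair only in shMCM7 noDox against parental noDox of A375 (0.21 to 0.34), where the pairing was accepted from the data. Alternatives were DESeq2 1.42.0 (size factors and Wald test), no filter, a minimum of 10 counts per library, the prior count raised to 2, a spread shared within a line, the replicate block, and leaving out each library. The steps were tested on simulated data with 100 genes changed 1.25-fold and 100 changed 1.5-fold. At an FDR of 0.05, 43 and 90 of these were recovered in A375 shMCM7 Dox against noDox. In the A375 difference of Dox effects 16 and 63 were recovered. In the 3 A549 comparisons by label, 2, 0 and 0 of the 100 genes changed 1.5-fold were recovered, so a neighbour changed that much would mostly have been missed there. Figures were drawn with matplotlib 3.10.9.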

Additional observations from a re-analysis of the deposited data

Results flagged for a closer look

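The effect of Dox on MCM7 differed between shMCM7 and parental A375 cells, with a difference of -1.92 on the log2 scale (SE 0.35, FDR 0.00111 by edgeR's quasi-likelihood test). None of the 7 neighbours differed in this way at an FDR of 0.05.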

How the results depend on the processing

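For all 9 comparisons the number of neighbours past an FDR of 0.05 stayed within 1.5 times under every alternative run. Over the 798 neighbour values of the 8 comparisons within a line, the alternatives gave log2 fold changes from -0.44 to 0.42 and a lowest FDR of 0.0585. With the replicate block, MCM7 in A375 shMCM7 Dox against noDox was at -1.74 (FDR 9.64e-05), and the block moved TAF6 between the lines out of the FDR threshold (0.11, FDR 0.268) and no other neighbour. Deviations of same-numbered libraries also correlated in A375 shMCM7 Dox against noDox (0.088 to 0.256) and in parental Dox against noDox (0.018 to 0.319). The lowest pair of each lay under 0.1, so the block was kept there as an alternative only. With it, 7933 genes passed an FDR of 0.05 in place of 6908 in shMCM7 Dox against noDox. In the difference of the A375 Dox effects, 5883 passed in place of 4895. Over all genes, the noDox comparison of shMCM7 with parental A375 cells had 478 genes past an FDR of 0.05, 935 with DESeq2, and 249 to 314 without shMCM7 noDox 2 or 3 or parental noDox 2 or 3. Parental A375 Dox against noDox had 0 genes past it, 42 with DESeq2, 57 with the block and 2 without parental Dox 3. In A549 by label, parental Dox against noDox had 383 genes past it and the difference of Dox effects 56 without parental noDox 3, against 0 with it. No alternative outside the leave-one-out fits turned a direction. Of 1008 neighbour values, 962 kept direction and side of the threshold, 36 turned sign, none of them past the test in either fit, and 10 no longer passed an FDR of 0.05 (TAF6 between the lines, with 9 A375 libraries left out in turn besides the block); the cause was not tested. Leaving out each library in turn gave these ranges where a sign turned. In A375 shMCM7 Dox against noDox, AP4M1 ranged from -0.012 to 0.035 and CNPY4 from -0.047 to 0.022. In parental A375 Dox against noDox, MBLAC1 ranged from -0.15 to 0.032 and ZNF3 from -0.067 to 0.015. In the difference of these effects, TAF6 ranged from -0.080 to 0.0022. Between shMCM7 noDox and parental noDox, MCM7 ranged from -0.52 to 0.031, CNPY4 from -0.0010 to 0.024, MBLAC1 from -0.19 to 0.018 and ZNF3 from -0.030 to 0.0088. Between shMCM7 Dox and parental Dox, AP4M1 ranged from -0.0042 to 0.071 and TAF6 from -0.0066 to 0.071. In A549 shMCM7 Dox against noDox by label, the ranges were -0.41 to 0.35 for MCM7, -0.047 to 0.044 for AP4M1, -0.084 to 0.13 for TAF6, -0.091 to 0.14 for COPS6, -0.21 to 0.14 for CNPY4, -0.11 to 0.076 for MBLAC1 and -0.14 to 0.042 for ZNF3. In parental A549 by label they were -0.036 to 0.17 for COPS6 and -0.28 to 0.13 for CNPY4, and in the difference of the A549 effects -0.17 to 0.060 for COPS6 and -0.16 to 0.30 for CNPY4. Between the lines COPS6 ranged from -0.0053 to 0.053. The A549 libraries, with a median of 20281925 counts against 227000374, and their labels limit what the A549 comparisons can show.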
